A study of Mus musculus with 4 samples.

Results

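The genes of the epidermal tight junction examined here were 9: the claudins Cldn1, Cldn3, Cldn4, Cldn7, Cldn8 and Cldn12, and Ocln, Tjp1 and F11r. They were chosen by name as known junction components, with earlier results of these data known, from 24453 gene symbols counted in every library. Of the 9, 8 had enough counts to be tested, and Cldn3 did not. RNA was sequenced from cells of newborn mouse back skin (postnatal day 0), sorted by flow cytometry as EpCAM positive, Sca1 positive and high for α6-integrin, a gate for interfollicular epidermis enriched in its progenitors. There were 2 libraries from mutants of the genotype Ring1a-/- Ring1b-/I53A (I53A below) and 2 from animals labelled only Control (CTL), whose alleles at Ring1a and Ring1b the labels do not give.

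RING1A and RING1B are the alternative catalytic subunits of Polycomb repressive complex 1, which adds ubiquitin to histone H2A, and the I53A substitution impairs that activity of RING1B. The mutants thus lack RING1A and carry 1 substituted copy of Ring1b over a null copy. The labels name no Cre driver and do not say in which cells either allele is lost, nor whether a library came from 1 animal or several, so p-values measure only the spread between these libraries, which in CTL may be technical. The 2 I53A libraries differ in sex and so do not share 1 animal as their source. In RNA of a sorted population, fewer cells of a type and less RNA per cell cannot be told apart.

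Tight junctions seal the space between neighbouring epithelial cells. Claudins are membrane proteins with 4 transmembrane segments that form the sealing strands and set which ions and solutes pass, occludin (Ocln) is a membrane protein of the same strands, F11r encodes the immunoglobulin-like adhesion protein JAM-A, and Tjp1 encodes ZO-1, the cytoplasmic scaffold that ties the strands to actin. In the epidermis the functional junctions lie in the granular layer, whereas the sort used here gates on basal, α6-integrin high cells. Mice without Cldn1 die soon after birth from water loss through the skin.

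The libraries held 15505018 to 21543385 counts. Ring1, the gene of RING1A, checked the labels: it had 24.2 and 33.3 CPM (read counts divided by the TMM-scaled size of the library) in the CTL libraries and 2.54 and 2.91 CPM in the I53A libraries. Rnf2, the gene of RING1B, had 58.5 and 45.8 CPM in CTL and 58.9 and 59.1 CPM in I53A, and a count cannot show a single-residue substitution. I53A replicate 1 came from a male (173 Xist counts and 1868 of the Y-linked Ddx3y) and the other 3 from females (at least 121977 Xist counts and at most 2 of Ddx3y). Sex thus differs between the 2 I53A libraries, and its part in their values was not tested. Replicates differed by more than sampling noise in both groups, with a chi-square per degree of freedom of 13.1 in CTL and 41.8 in I53A.

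The promoters show how unlike these genes are in sequence. Those of Cldn1, Tjp1, Cldn4 and Cldn6 are printed from RefSeq (GRCm38.p6, the same coordinates as mm10). Cldn1 was the most abundant claudin of these libraries, Cldn4 a claudin of low level and Cldn6 the one claudin that passed the test. Each is given 5′ to 3′ on the gene's own strand, with CpG pairs in capitals, and cut where annotated exons begin. The Tjp1 window stands before a RefSeq start inside the gene, whose annotated 5′ end is at chr7:65527781.
Cldn1 (chr16:26371842-26372089, minus strand): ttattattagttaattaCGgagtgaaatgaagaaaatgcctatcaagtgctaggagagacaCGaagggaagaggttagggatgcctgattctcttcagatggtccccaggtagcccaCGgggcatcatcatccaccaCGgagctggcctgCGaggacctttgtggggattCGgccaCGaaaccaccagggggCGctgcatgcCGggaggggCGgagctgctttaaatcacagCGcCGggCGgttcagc
Tjp1 (chr7:65371245-65371494, minus strand): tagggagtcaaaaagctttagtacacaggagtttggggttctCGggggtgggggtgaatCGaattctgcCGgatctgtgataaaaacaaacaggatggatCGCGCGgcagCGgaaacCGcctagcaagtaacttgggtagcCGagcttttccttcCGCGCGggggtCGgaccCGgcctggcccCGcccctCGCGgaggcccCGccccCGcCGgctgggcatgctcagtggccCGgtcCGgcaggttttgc
Cldn4 (chr5:134946935-134947184, minus strand): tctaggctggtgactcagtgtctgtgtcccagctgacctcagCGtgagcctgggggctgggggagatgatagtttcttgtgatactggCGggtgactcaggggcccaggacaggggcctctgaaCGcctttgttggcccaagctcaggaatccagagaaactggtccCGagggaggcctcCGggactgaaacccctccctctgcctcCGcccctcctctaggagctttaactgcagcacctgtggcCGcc
Cldn6 (chr17:23679115-23679248, plus strand): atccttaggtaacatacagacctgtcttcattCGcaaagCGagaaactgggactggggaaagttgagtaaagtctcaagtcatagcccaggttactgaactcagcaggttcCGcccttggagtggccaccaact

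Counted over the full 250 bases before the start, the Tjp1 window held 22 CpG pairs, F11r 17, Cldn1 14, Cldn3 9 and Cldn4 7. The 2 Cldn7 windows held 6 and 10, the 2 Ocln windows 14 and 22, and the 3 Cldn12 windows 6, 16 and 20. Cldn6 held 9. Over all 32851 windows the median was 6 and the quartiles were 2 and 16, so no window of a listed gene was under the median, and at least 1 window of Tjp1, F11r, Ocln and Cldn12 was above the upper quartile. Of the 9 genes, 8 had a window in the RefSeq table, 12 windows in all.

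The hexamer CAGGTG, searched on both strands, is the core of the E-box that the Snail and ZEB repressors of epithelial genes bind. It stood in 4 of the 12 windows, in Cldn4, Cldn7, F11r and Ocln, against 17.2% of all windows. The matches are printed with their flanks, the hexamer or its reverse complement in capitals. Cldn1 and Tjp1 had none in their windows. Cldn7 and Ocln had 2 windows each, and their matches stood only in the window of the downstream start. The window before the annotated 5′ end of either gene held 0. The Cldn6 match printed below lies past the annotated start of its gene.
Cldn4 (chr5:134946935-134946959, minus strand): tttaactgcagCACCTGtggccgcc
Cldn7, the first (chr11:69965313-69965340, plus strand): ttcttcctcttCACCTGgacgaggaggg
Cldn7, the second (chr11:69965353-69965380, plus strand): gacttccggttCAGGTGagtgtcccttc
F11r (chr1:171437428-171437455, plus strand): gttcggggttgCACCTGcgtacggtgag
Ocln, the first (chr13:100552550-100552577, minus strand): taggggctcggCAGGTGggtcccagcgc
Ocln, the second (chr13:100552695-100552722, minus strand): catcggagtttCAGGTGaatgggtcacc
Cldn6 also held one: ggaaacgcacgCAGGTGgctatcgccgc (chr17:23679261-23679288, plus strand). The site bound by the Grainyhead-like factors, AACCGGTT, stood in none of the 12 windows and in 0.116% of all windows, and its relaxed form AACNNGTT, which includes it, in none of the 12 and in 3.64%. A match is a run of letters and not a bound site, and its absence says nothing of the factor.

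None of the 8 tested genes passed an adjusted p of 0.05 in either direction by edgeR's quasi-likelihood test (adjusted p from 0.264 upwards). Of the 14550 tested genes 6.71% did, 5.68% higher and 1.04% lower in I53A. At that share, the absence of a call among 8 genes does not set them apart. With 2 libraries a group, a gene that did not pass may still differ. At an unadjusted p under 0.05 there was 1 gene, Tjp1, in edgeR (18.7% of all tested genes), 0 in DESeq2 and 1 in limma-voom. The fitted log2 fold changes lay between -0.40 and 0.41, with a median of 0.25 against -0.01 over all tested genes. The groups did not overlap in 1 of the 8, again Tjp1, against 47.9% of tested genes (24.5% with I53A above and 23.5% with I53A below).

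**Figure D1:**
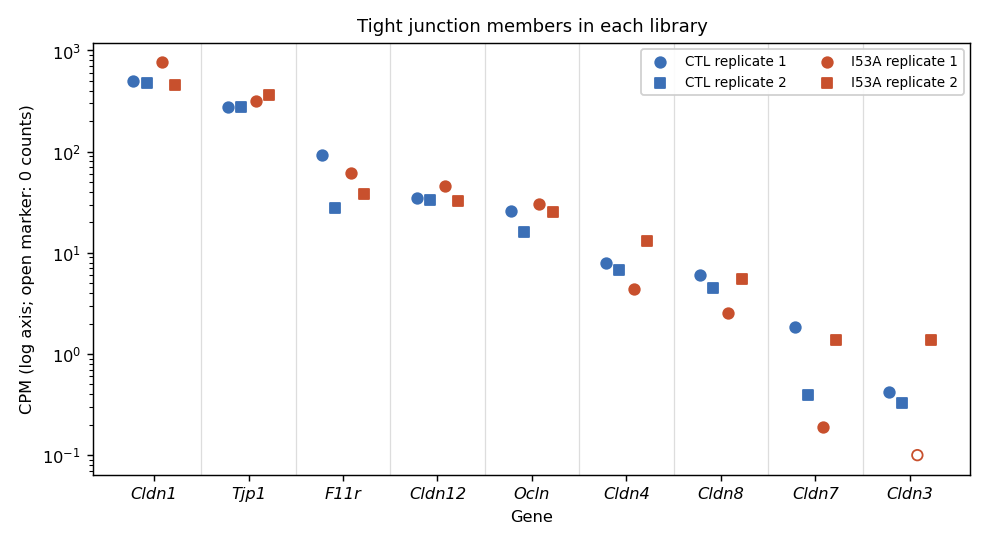
CPM (log axis) of the 9 junction genes in each of the 4 libraries, blue for CTL and orange for I53A, circles for replicate 1 and squares for replicate 2. The open circle is the I53A library with 0 Cldn3 counts. Tjp1 is the only gene whose I53A points both lie above its CTL points.

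Cldn1, on chromosome 16 (chr16:26356642-26371841, minus strand), is the main sealing claudin of the epidermis. It had 498 and 472 CPM in CTL and 764 and 457 CPM in I53A. The high value belonged to I53A replicate 1, and the other mutant library lay just under both controls, so the groups overlapped. The log2 fold change was 0.33 ± 0.21 (SE, n = 2 and 2), with a 95% interval from -0.14 to 0.80 and an adjusted p of 0.471 by edgeR's quasi-likelihood test. That value rested on single libraries: without I53A replicate 2 it was 0.66, and without I53A replicate 1 it was -0.080. With 1 mutant library left, the spread comes from the CTL libraries alone, so no test result is given for these values.

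Cldn12, a claudin without the usual scaffold-binding tail (chr5:5489537-5514958, minus strand), had 35.1 and 33.2 CPM in CTL and 45.4 and 32.9 CPM in I53A. As for Cldn1, I53A replicate 1 was the high library and I53A replicate 2 lay below both controls. The log2 fold change was 0.19 ± 0.20, interval -0.26 to 0.64.

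Cldn4, a barrier claudin of differentiated epidermal cells (chr5:134945119-134946934, minus strand), had 7.86 and 6.76 CPM in CTL and 4.39 and 13.05 CPM in I53A. The controls lay between the 2 mutant libraries. Its log2 fold change was 0.31 ± 0.45, interval -0.69 to 1.31, and without I53A replicate 2 it turned to -0.74.

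Cldn8 (chr16:88560828-88563183, minus strand), best known from kidney and colon epithelium, had 6.07 and 4.44 CPM in CTL and 2.54 and 5.51 CPM in I53A. Again I53A replicate 1 was the low library. Its log2 fold change was -0.33 ± 0.44, interval -1.30 to 0.65.

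Cldn7 (chr11:69964779-69967885, plus strand), which in many epithelia also lies along the lateral membrane, was near the floor with 31 and 6 counts in CTL and 3 and 31 in I53A. Each group had a high and a low library, and the interval of the log2 fold change, -2.37 to 1.57, allowed a large difference in either direction. Cldn3 (chr5:134986214-134987472, plus strand), a claudin of gut and airway epithelium, had 7 and 5 counts in CTL and 0 and 31 in I53A and was not tested. A count of 0 in I53A replicate 1 allows up to 0.191 CPM, from 3 counts, for counting error alone. Cldn3 shares 40 exonic bases with Wbscr25 on the other strand, and reads there cannot be assigned without strand.

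The 4 claudins of low level thus shared an order of the mutant libraries. Cldn3, Cldn4, Cldn7 and Cldn8 were all lower in I53A replicate 1 than in I53A replicate 2, by 2.97-fold for Cldn4 and 2.17-fold for Cldn8. Cldn1 and Cldn12 had the opposite order. On log2(CPM + 0.5), I53A replicate 2 was above replicate 1 by 1.90 for Cldn3, 1.47 for Cldn4, 1.43 for Cldn7 and 0.98 for Cldn8. On that scale 3.59% of all tested genes were higher by at least 1 in I53A replicate 2. In either direction 6.03% differed by over 1, and 4.69% did so between the 2 CTL libraries. These shares cover tested genes of every level, and genes of low level were not counted apart. Cldn3 was not tested, Cldn7 was near the floor and Cldn8 did not reach 1. Sex, GC content, spinous markers and some simple-epithelial markers also separated the 2 I53A libraries. Over tested genes, the median log2 ratio of I53A replicate 2 to replicate 1 went from -0.09 for genes under 40% GC to 0.07 for those over 55%. The summed level of spinous markers was 2993 CPM in I53A replicate 1 and 4776 CPM in I53A replicate 2. Basal markers summed to 29370 and 25940 CPM, and granular markers to 369.4 and 365.2 CPM. Of the Merkel and simple-epithelial markers, Krt8 and Sox2 were 3.46-fold, Krt18 5.08-fold, Krt19 11.3-fold and Krt7 1.28-fold higher in I53A replicate 2. Krt20, Atoh1, Isl1 and Piezo2 were lower there. Krt20, Isl1 and Sox2 had too few counts to be tested. The part of any of these in the claudin values was not tested.

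Ocln (chr13:100496507-100552718, minus strand) had 25.7 and 16.0 CPM in CTL and 30.5 and 25.5 CPM in I53A. CTL replicate 2 stood below the other 3 libraries, and I53A replicate 2 was just under CTL replicate 1. The log2 fold change was 0.41 ± 0.25, interval -0.14 to 0.97, with an adjusted p of 0.443 by edgeR's quasi-likelihood test.

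F11r (chr1:171437535-171464603, plus strand) had 93.5 and 27.8 CPM in CTL and 61.8 and 38.3 CPM in I53A. Both mutant libraries lay between the controls, which differed 3.37-fold. Its log2 fold change was -0.29 ± 0.43, interval -1.25 to 0.67, and it was 0.85 without CTL replicate 1.

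Tjp1 (chr7:65296165-65527781, minus strand) had 274 and 276 CPM in CTL and 316 and 366 CPM in I53A. Both mutant libraries lay above both controls, which were nearly alike (SD 1.03 CPM, against 35.3 CPM in I53A). Its log2 fold change of 0.31 ± 0.14, a fold of 1.24 with interval 1.00 to 1.53, had an unadjusted p of 0.0486 and an adjusted p of 0.264 by edgeR's quasi-likelihood test. It kept its sign in every alternative, from 0.14 to 0.42. With all 4 libraries its smallest adjusted p was 0.256, by edgeR's quasi-likelihood test with a filter of at least 1 CPM in 2 libraries.

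**Figure D2:**
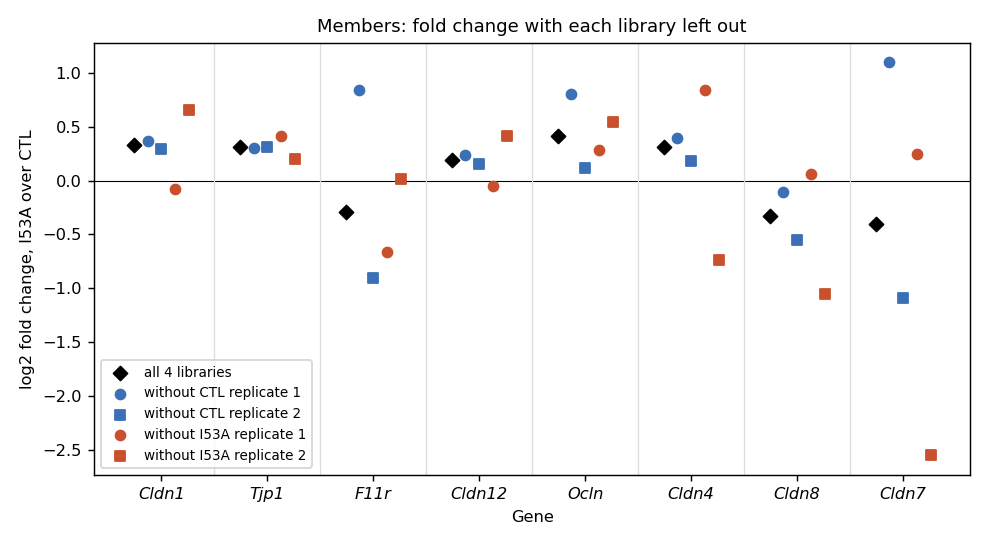
Log2 fold change, I53A over CTL, of the 8 tested junction genes with all 4 libraries (black diamonds) and with each library left out in turn (blue for CTL, orange for I53A, circles for replicate 1 and squares for replicate 2). Tjp1 and Ocln stay above 0 throughout, and Cldn1 runs from -0.080 to 0.66.

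Compared per length, as CPM per kb of exon averaged over the 4 libraries, Cldn1 led with 113, followed by Tjp1 with 39.4, F11r with 20.8, Cldn12 with 8.67, Ocln with 5.79, Cldn4 with 4.41, Cldn8 with 1.97, Cldn7 with 0.488 and Cldn3 with 0.420. The ranges over libraries of F11r and Cldn12 overlapped, as did those of Ocln and Cldn4, of Cldn4 and Cldn8, and of Cldn7 and Cldn3. No other neighbours in this order overlapped.

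The files held 29 claudin genes, of which 7 had 0 counts in every library, 9 were tested and 13 had counts but too few to test. Cldn1 made up 89.1% and 90.5% of all claudin counts in CTL and 90.1% and 81.3% in I53A. The exact binomial 95% interval of the last, 80.6 to 81.9%, lay apart from those of the other 3 libraries. These intervals cover counting error only, and replicates of both groups differed by more than that. In I53A replicate 2 Cldn6 took 7.99% of claudin counts (7.52 to 8.47%), against 2.97% in the other mutant library and 0.383% and 0.0127% in CTL.

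Cldn6, an early epithelial claudin best known from the embryo and pluripotent cells, rose in the mutant. It had 36 and 1 counts in CTL and 396 and 1018 in I53A, or 2.14 and 0.0663 CPM against 25.2 and 44.9 CPM. Both mutant libraries lay far above both controls, and the 2 controls differed widely from each other. The log2 fold change was 4.93 ± 0.57, interval 3.67 to 6.19, with an adjusted p of 0.00072 by edgeR's quasi-likelihood test. DESeq2 gave 4.99 with an adjusted p of 0.0534, which misses the threshold. The pooled I53A level was 17.2 times that of CTL replicate 1 alone (exact counting interval 12.3 to 24.6) and 556 times that of CTL replicate 2 alone, where 1 count gave an interval from 99.6 upwards. Cldn6 passed the filter on low counts only through the mutant libraries. With each library left out in turn, its log2 fold change lay between 4.03 and 8.91, the latter without CTL replicate 1.

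Cldn6 lies on chromosome 17 (chr17:23679249-23682446, plus strand), 137 bases from the end of Cldn9 on the other strand. That neighbour had 0 counts in both CTL libraries and 3 and 1 in I53A, and was not tested. Of the other claudins outside the list, Cldn20 had 0.298 and 0.596 CPM in CTL and 1.15 and 1.76 CPM in I53A (adjusted p = 0.241 by edgeR's quasi-likelihood test), and like Cldn6 it passed the filter on low counts only through the mutant libraries. Cldn15 had a log2 fold change of -0.73 ± 0.64 and Cldn10 one of 0.36 ± 0.96, neither called. Claudin genes that lie close to a listed one were 29.6 kb (Cldn13) and 39.3 kb (Cldn3) from Cldn4, 53.8 kb (Cldn17) from Cldn8 and 91.3 kb (Cldn16) from Cldn1, and none of these had enough counts to be tested.

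**Figure D3:**
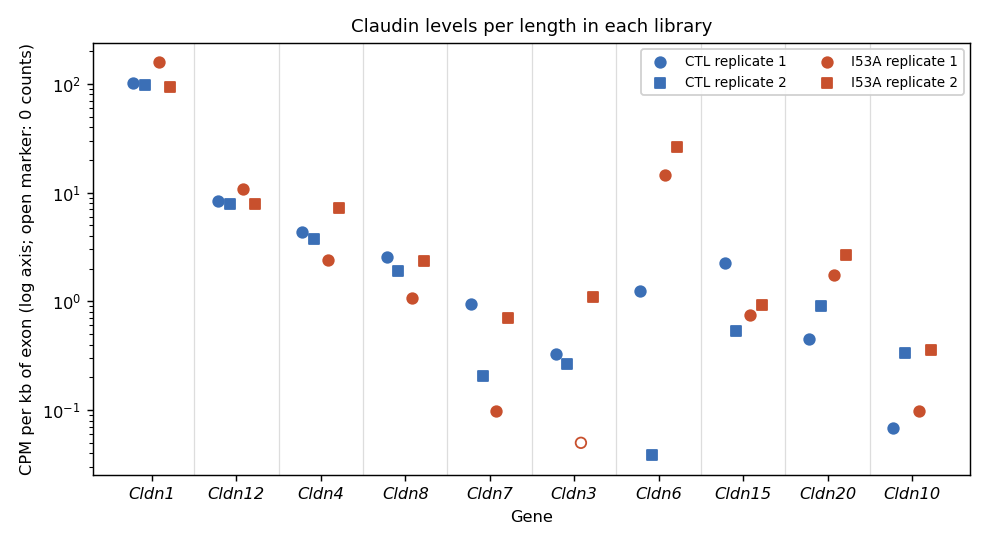
Level per length (CPM per kb of exon, log axis) of the 6 listed claudins and of Cldn6, Cldn15, Cldn20 and Cldn10 in each library, colours and shapes as in the plot of CPM by library. Cldn1 is highest in every library, and Cldn6 is higher in both I53A libraries than in either CTL library.

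The list of further tight junction genes, other claudins, other membrane proteins and cytoplasmic partners, held 64 genes. Of these, 62 were in the files and 41 were tested, and 6 were called higher, 0 lower and 35 neither (14.6% called, against 6.71% of all tested genes). Their median log2 fold change was 0.09. Of the 41, Cldn6, Cldn20 and Magi2 passed the filter on low counts only through the mutant libraries. Besides Cldn6, the 5 called were cytoplasmic, and so were 28 of the 41 tested (17.9% of the 28 called). The rest were 9 other membrane proteins with 0 called and 4 other claudins with 1 called. The split of calls by place in the cell was not tested.

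Cgnl1, paracingulin, which links junctions to actin and microtubules, had 20.7 and 19.1 CPM in CTL and 43.6 and 41.3 CPM in I53A, a log2 fold change of 1.09 ± 0.19 (adjusted p = 0.00577 by edgeR's quasi-likelihood test). Magi3, a multi-PDZ scaffold, had 15.5 and 14.3 CPM in CTL and 30.3 and 30.8 CPM in I53A, 1.04 ± 0.20. The pairs of replicates of both genes differed little beside the gap between groups.

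The angiomotins bind junction scaffolds and the Hippo effector YAP. Amot had 2.26 and 3.78 CPM in CTL and 12.3 and 12.0 CPM in I53A, a log2 fold change of 2.02 ± 0.36. Amotl2 had 23.3 and 14.2 CPM in CTL and 44.9 and 38.7 CPM in I53A, 1.14 ± 0.24. In both genes each mutant library lay above each control. The third angiomotin, Amotl1, was the highest of the family with 464 and 471 CPM in CTL and 616 and 430 CPM in I53A, and was not called (0.16 ± 0.17). Afdn, afadin, the partner of nectins, had 190 and 165 CPM in CTL and 260 and 269 CPM in I53A, 0.58 ± 0.14 (adjusted p = 0.0357 by edgeR's quasi-likelihood test).

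A fit without 1 control library takes its spread from the I53A pair alone, so only log2 fold changes are given for it. Without CTL replicate 1 they were 8.91 for Cldn6, 1.15 for Cgnl1, 1.09 for Magi3, 1.68 for Amot, 1.56 for Amotl2 and 0.69 for Afdn. Without CTL replicate 2 they were 4.03, 1.04, 0.98, 2.42, 0.84 and 0.47 in that order. Not every call held in those fits, and calls over all genes fell in them too. With offsets for GC content and length, the calls of Amotl2 (adjusted p = 0.057 in edgeR's quasi-likelihood test) and Afdn (0.178) were lost, and the further junction genes divided into 4 higher and 5 lower instead of 6 and 0. Those offsets moved the median of all genes by -0.13 on the log2 scale and the share of higher among all calls from 84.5% to 52.4%.

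**Figure D4:**
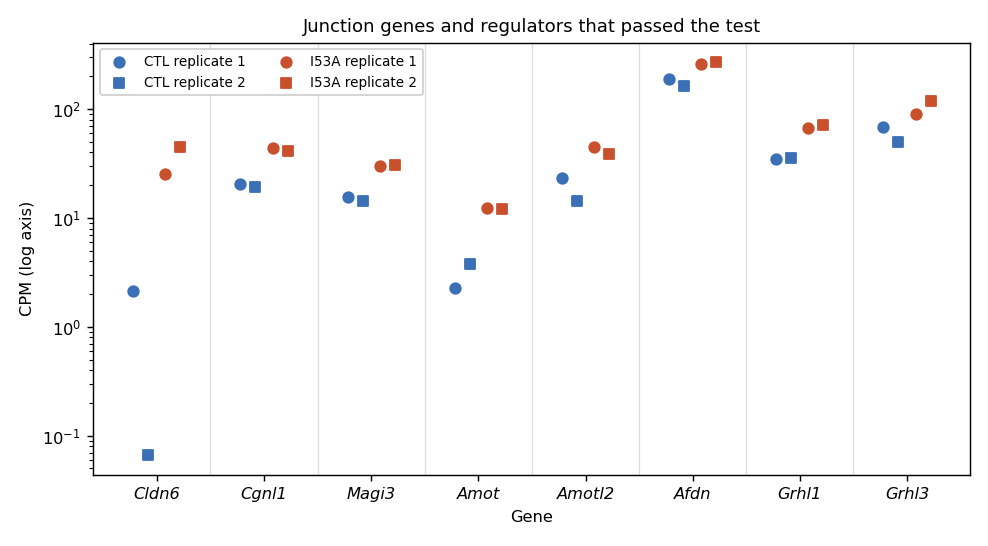
CPM (log axis) of the 6 further junction genes and the 2 regulators that rose in I53A, in each library, colours and shapes as in the plot of CPM by library. All 8 genes were chosen because they were called higher in these same libraries. In each, both I53A points lie above both CTL points, by the widest margin in Cldn6.

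The other membrane proteins gave 0 calls among 9 tested. Cxadr, a virus receptor of the junction, had 301 and 259 CPM in CTL and 279 and 227 CPM in I53A, -0.15 ± 0.15. Lsr, angulin-1 of the tricellular junction, had 50.4 and 63.0 CPM against 71.5 and 74.0 CPM, 0.36 ± 0.17 (adjusted p = 0.283 by edgeR's quasi-likelihood test); its exons overlap those of 2 genes on the other strand. Marveld2, tricellulin, which lies 43.2 kb from Ocln on chromosome 13, had 21.4 and 18.7 CPM against 28.9 and 32.1 CPM, 0.61 ± 0.20 (adjusted p = 0.118). Of the 9, both I53A libraries lay above both controls in 5 (Lsr, Marveld2, Marveld3, Ildr1 and Jam3) and below in 1 (Ildr2), and 3 overlapped, against 47.9% of all tested genes that did not overlap.

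Among the cytoplasmic partners of high level, Ybx3, a transcription factor bound by ZO-1, had a log2 fold change of -0.19 ± 0.15, and Prkci, the atypical protein kinase C of the polarity complex, one of 0.06 ± 0.14.

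**Figure D5:**
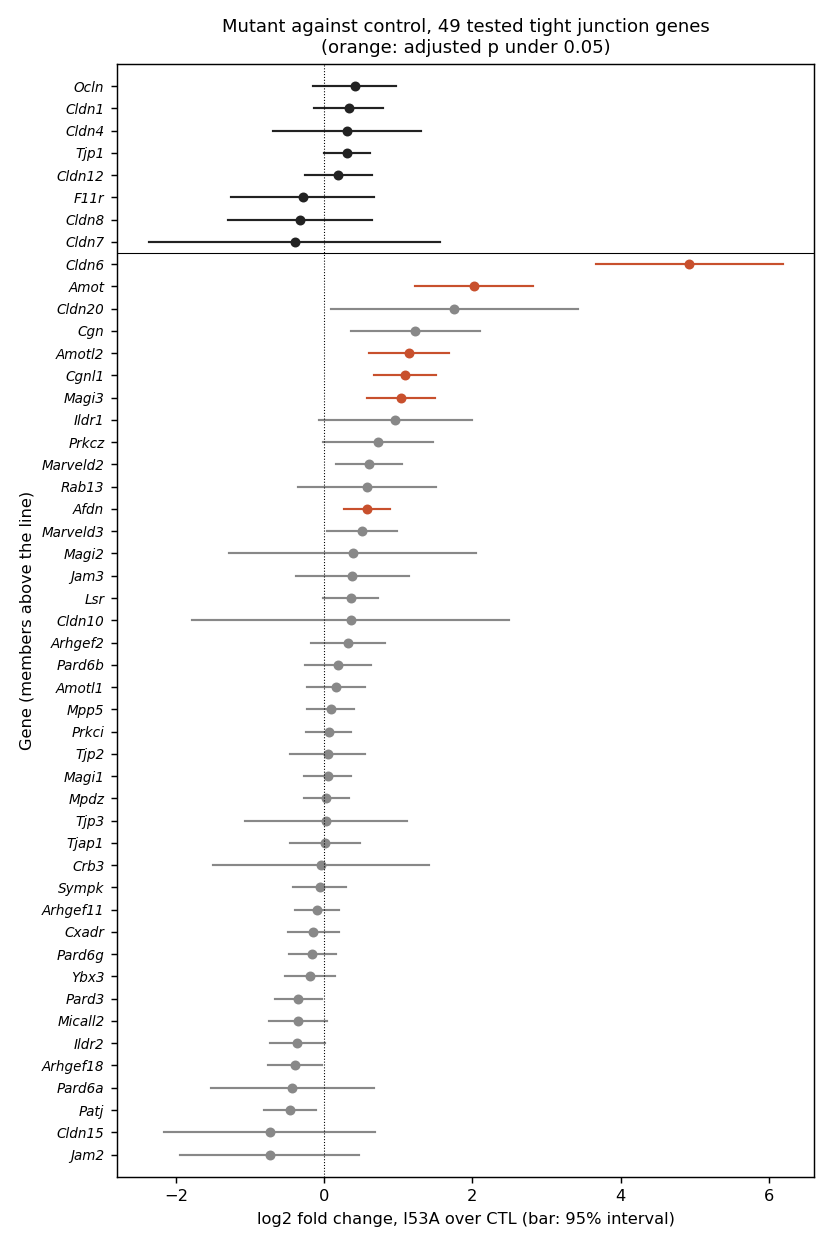
Log2 fold change, I53A over CTL, with its 95% interval for the 8 tested listed genes (black, above the line) and the 41 further tight junction genes (below; orange where called, grey where not). No listed gene is called, and the 6 called genes are all higher in I53A.

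Of 19 regulators of junction genes, 18 were tested, and edgeR's quasi-likelihood test called 2 higher and 0 lower, 11.1% against 6.71% of all tested genes. DESeq2 called 4 higher and 1 lower. Grhl1 and Grhl3, the 2 called by edgeR, are Grainyhead-like transcription factors, which drive barrier and junction genes in epithelia. Grhl1 had 34.9 and 35.2 CPM in CTL and 66.6 and 71.1 CPM in I53A, a log2 fold change of 0.97 ± 0.16 (adjusted p = 0.0049 by edgeR's quasi-likelihood test). Grhl3 had 68.4 and 49.8 CPM in CTL and 90.4 and 119.5 CPM in I53A, 0.83 ± 0.20 (adjusted p = 0.0333). Without CTL replicate 1 the log2 fold change was 0.97 for Grhl1 and 1.08 for Grhl3, and without CTL replicate 2 0.98 and 0.62. Neither call held in those fits, in which calls over all genes fell too. The third gene of the family, Grhl2, named after its values were seen, had the opposite sign, with 222 and 201 CPM in CTL and 132 and 195 CPM in I53A, -0.37 ± 0.19 (adjusted p = 0.335). Without I53A replicate 2, which leaves 1 mutant library, Grhl2 was at -0.68.

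Regulators of high level per length were not called. Trp63, the master factor of stratified epithelium, had a log2 fold change of -0.17 ± 0.20. It became -0.53 without I53A replicate 1 and 0.12 without I53A replicate 2. Klf4, a factor of barrier formation, had 0.03 ± 0.15. Epcam, the sorted surface protein and a partner of Cldn7, and Ovol1, a repressor of mesenchymal genes, were named after their values were seen: Epcam had 0.59 ± 0.17 (adjusted p = 0.0635) and Ovol1 -1.22 ± 0.33 (adjusted p = 0.0545), both in edgeR's quasi-likelihood test. Ovol1 was called lower in DESeq2 (adjusted p = 0.00306), and in edgeR with RLE scaling (0.0476), with no low-count filter (0.0161) and with GC content and length offsets (0.0117). Epcam was called higher in DESeq2 (adjusted p = 0.0279).

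Layer and lineage markers were read beside these values. Over all tested genes 6.71% were called, 5.68% higher and 1.04% lower. Of 10 tested basal genes, 1 was called, Krt15 (-0.78 ± 0.18), and of 8 spinous genes 0. The share called was 33.3% of 15 granular genes, 20% of 10 fibroblast genes and 25% of 12 hair follicle genes. It was 33.3% of 6 Merkel and simple-epithelial genes and 20% of 5 skeletal muscle genes. In lists this short 1 gene moves the share widely. Summed over the list, the basal level was 34790 and 36950 CPM in CTL and 29370 and 25940 CPM in I53A. The spinous sum was 4175 and 4845 CPM in CTL and 2993 and 4776 CPM in I53A. For the granular layer the sum was 298.7 and 347.5 CPM in CTL and 369.4 and 365.2 CPM in I53A. Of 15 tested genes of the granular layer, which holds the junctions, 4 were called higher, with Scel (1.23 ± 0.21) and Tgm1 (1.51 ± 0.27) among them, and 1 lower, Tgm3 (-2.05 ± 0.37). The summed level of 10 fibroblast markers was 1468 and 1536 CPM in CTL and 2246 and 2056 CPM in I53A, with Fbn1 and Dcn called higher, and that of 9 Merkel and simple-epithelial markers 23.3 and 12.99 CPM against 100 and 119.5 CPM, with Krt7 (4.88 ± 0.27) and Piezo2 (1.44 ± 0.27) called higher. Of the 6 tested markers of that list, 3 had a positive and 3 a negative log2 fold change, the lowest that of Krt8, -2.40 ± 0.78 (adjusted p = 0.111 by edgeR's quasi-likelihood test). Krt7 alone had 72.8 and 93.1 CPM of the I53A sums. The 12 hair follicle markers summed to 872 and 935 CPM in CTL and 1246 and 1316 CPM in I53A, with Lhx2 and Krt79 called higher and Krt71 lower. Of the 10 skeletal muscle markers, 5 were tested and Myh4 was called lower, with 57 and 21 counts in CTL and 0 in both I53A libraries. Over the 10 endothelial, 8 melanocyte and 10 leukocyte markers 0 of 10, 5 and 7 tested were called. Their sums were 20.1 and 55.9, 20.6 and 27.8, and 229.9 and 449.5 CPM in CTL, and 36.7 and 41.7, 30.3 and 27.1, and 233 and 497 CPM in I53A, with Cd3g, a T cell gene, at 0 throughout. None of the fibroblast, Merkel or hair follicle markers was at 0 in every library. Of these calls, Krt15, Tgm1, Dcn, Piezo2 and Krt79 did not hold without either control library. Calls over all genes fell in those fits too. Scel, Tgm3 and Krt71 did not hold without CTL replicate 2, Myh4 without CTL replicate 1, and Krt79 and Krt71 without I53A replicate 2. All these genes kept the sign of their log2 fold change. In limma-voom neither Krt79 (adjusted p = 0.0662) nor Krt71 (0.0816) was called. The fibroblast, Merkel and simple-epithelial, hair follicle and granular sums were higher in both I53A libraries, as Cldn6 and the other called junction genes were. The basal sum was lower in both I53A libraries. The part of these sums in the junction gene results was not tested. The spinous, endothelial, melanocyte and leukocyte sums overlapped between groups.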

How the data were processed

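Total RNA from sorted cells of newborn skin, in 4 libraries, was reverse transcribed, amplified and sequenced in single reads. The authors deposited a table of raw read counts per gene symbol for each library. The build was mm10 and the tools listed, with no role for each, were HTSeq 0.6.1, TopHat2 2.0.13, DESeq2 1.6.3 and Cufflinks 2.2.1, per the submitters' processing notes. Which annotation, strand setting and rule for reads with several matches were used is not given in these sources.

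All 24453 symbols entered 1 fit. Genes were kept by edgeR's filterByExpr (minimum count 10, minimum total 15), which left 14550. Scaling was by TMM, and I53A was tested against CTL with edgeR's quasi-likelihood test (edgeR 4.0.16, R 4.3.3) with Benjamini-Hochberg adjustment over all 14550. A gene with an adjusted p under 0.05 is called. Standard errors (SE) and 95% intervals come from that fit. CPM are counts over the TMM-scaled library total, and levels per length are CPM per kb of the gene's joined exons in GENCODE on mm10, matched for 98.5% of symbols. DESeq2 1.42.0, limma-voom (limma 3.58.1), other scalings and filters, GC content and length offsets, a replicate block and leaving out each library were the alternatives. The fit was tested on simulated data first. Intervals on shares of counts cover counting error only.

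The 9 genes and the other lists were chosen with earlier results of these data known. Genes named are all 9, every called gene of the junction and regulator lists with the 3 uncalled ones of highest level per length in each (1 such regulator is not reported here), and up to 2 called genes per direction of each layer or marker list. Genes outside this rule were picked with their values in view. They were Cldn9, Magi2, Grhl2, Krt8, Epcam, Spint1, Ovol1, Marveld3, Ildr1, Ildr2, Jam3, the neighbouring claudins, Cd3g and the other Merkel and simple-epithelial markers.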

Additional observations from a re-analysis of the deposited data

How the results depend on the processing

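A fit without 1 library leaves a single library in 1 group, so its calls rest on the spread within the other group alone. Among the 9 listed genes, 0 were called under the other tools, scalings and filters, the offsets and the replicate block. Leaving out each library gave 0 to 1 called, 0 to 1 higher, the 1 being Cldn1 without I53A replicate 2. Leaving out a library turned the sign of some log2 fold changes, none of them called with all libraries, with ranges of -0.080 to 0.66 for Cldn1, -0.74 to 0.84 for Cldn4, -2.55 to 1.10 for Cldn7, -1.05 to 0.066 for Cldn8, -0.048 to 0.41 for Cldn12, -0.90 to 0.85 for F11r, -1.39 to 0.68 for Cldn15, -0.96 to 1.80 for Cldn10, -0.017 to 0.15 for Prkci, -0.11 to 0.40 for Amotl1, -0.53 to 0.12 for Trp63 and -0.10 to 0.15 for Klf4. With GC content and length offsets Prkci was at -0.0039, Amotl1 at -0.14 and Klf4 at -0.14, and with the replicate block as well at -0.0053, -0.17 and -0.14.

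Over all genes, leaving out a library gave 297 to 1520 calls, 258 to 1131 higher and 34 to 389 lower. Lower calls were 232 in DESeq2, 232 with the replicate block, 662 with the offsets and 1025 with offsets and block, which called 1986 in all, against 151 and 977. Of the further junction genes, 2 to 7 were called without a library, 2 to 7 of them higher. The offsets gave 5 lower calls, and offsets with block 10 calls, 5 of them lower. Of the regulators, 0 to 5 were called without a library, 0 to 4 higher and 0 to 2 lower. DESeq2 and the replicate block each called 5, 4 higher (Grhl1, Grhl3, Epcam and Spint1) and 1 lower (Ovol1), and offsets with block 5, of which 2 were lower (Ovol1 and Grhl2). RLE scaling, no low-count filter and the offsets each called 1 regulator lower, Ovol1. The cause of these shifts was not tested.

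The replicate numbers did not pair the libraries: deviations of same-numbered libraries from their group means correlated at 0.0454 over 14550 genes, so the block is given here only. With 2 libraries a group, the 95% interval of the fold reached from 0.194 to 2.96 for Cldn7, the listed gene of fewest counts tested. For Tjp1 it reached from 1.00 to 1.53. These intervals are not adjusted for the number of genes and are not a limit of detection. In simulated counts the fit recovered 10% of genes changed 1.5-fold, 46% of those changed 2-fold and 78% of those changed 4-fold.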
